A study of Arabidopsis thaliana and Zea mays with 36 samples.

Results

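Leaf RNA of Arabidopsis thaliana under drought level DT4 was compared with leaf RNA of well-watered plants (WW), gene by gene, in 4 of the 36 libraries of the series. The comparison takes every gene whose expression, in TPM (transcript abundance scaled to a fixed library total) summed over its transcripts, reached 1 TPM in at least 2 of the 10 Arabidopsis linear RNA libraries. That rule kept 18938 of 27655 genes. Each group has 2 libraries, and each library was made from pooled rosette leaves of 4 plants of the unmutated ecotype Col-0. WW and DT4 plants share genotype and tissue and differ, per the labels, in the water they were given from 21 days after planting on. RNase R, which degrades linear RNA and was used for the study's circular RNA libraries, was not applied to these. The soil moisture that defines DT4 and the hour of harvest are not stated in the sources used here. Neighbouring levels DT3 and DT5 and the level DT2 have 2 libraries each and entered the same fit.

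A drying plant makes the hormone abscisic acid (ABA). Free receptors of the PYR/PYL/RCAR family bind ABA and then trap the clade A PP2C phosphatases, which otherwise hold the SnRK2 kinases off. The freed kinases act on ABF transcription factors, which bind the promoters of many drought genes, among them those of dehydrins and other late embryogenesis abundant (LEA) proteins. Those proteins are thought to shield membranes and other proteins in drying cells. In leaves, growth, water uptake through aquaporins and photosynthesis are known to be turned down as drought deepens, and old leaves may senesce.

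Of the 18938 genes tested, 9146 were called higher at DT4 (48.3%) and 3100 lower (16.4%), by limma on log2(TPM + 1) at a Benjamini-Hochberg adjusted p under 0.05. In either direction that is 64.7%. TPM keep no sequencing depth, and the median gene lay 0.41 higher at DT4 on the log2 scale. Rescaling each library by a trimmed mean of its gene ratios, which assumes that most genes do not change, brought that median to 0.064. The calls then were 5238 higher (27.7%) and 4891 lower (25.8%). A list's median is therefore stated as its distance from that of the median gene, and its calls under both scalings. Rescaling moved DT4 down against WW, with log2 offsets of -0.18 and -0.22 in WW and 0.20 and 0.20 at DT4. All 3100 genes called lower were called lower then too, which this shift favours, so a kept lower call is no separate support. No gene called higher was called lower after rescaling. Of 8 genes often used as references, 6 rose and 0 fell, and 0 rose and 2 fell after rescaling. The WW and DT4 libraries did not overlap for 83.4% of the genes tested. The 2 WW libraries correlated at 0.987 and the 2 DT4 libraries at 0.977 on the log2 scale. Between them the groups correlated at 0.835 to 0.885, with DT4 library 2 the nearer to WW. The 4 mesophyll markers (RBCS1A, CAB1, CA1 and RCA) summed to 56049 and 59199 TPM in WW and to 21020 and 27037 TPM at DT4, and all 4 fell; their part in the falls of other chloroplast genes was not tested. Of 6 seed markers, 3 were at 0 in all 4 libraries and the sum was 0.27 TPM or less in each. Of 3 shoot meristem markers, WUS and CLV3 were at 0 in all 4 libraries. The other, STM (AT1G62360), stood at 3.49 and 0.31 TPM in WW and 3.99 and 4.07 TPM at DT4 and was not called, but was called higher without WW library 1 (log2 1.94), and its part in the results was not tested. Flower markers summed to 1.12 to 3.10 TPM. Root markers summed to 113 and 82.2 TPM in WW and 64.3 and 79.1 TPM at DT4. Of these, PYK10, SCR and SHR were not called, and were called lower after rescaling. Of 4 trichome and epidermis markers 2 fell, ATML1 (log2 -0.81) and PDF1 (log2 -1.40), and 0 rose. Of 3 phloem markers, SUC2 rose (log2 0.91) and SULTR2;1 fell (log2 -1.38). The part of these markers' cells in the results was not tested. The libraries are bulk RNA of pooled leaves, in which fewer cells of a type and less RNA per cell cannot be told apart. With 2 against 2 libraries an exact permutation test cannot go below a two-sided p of 0.333, so single genes rest on the fit across all genes.

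**Figure D1:**
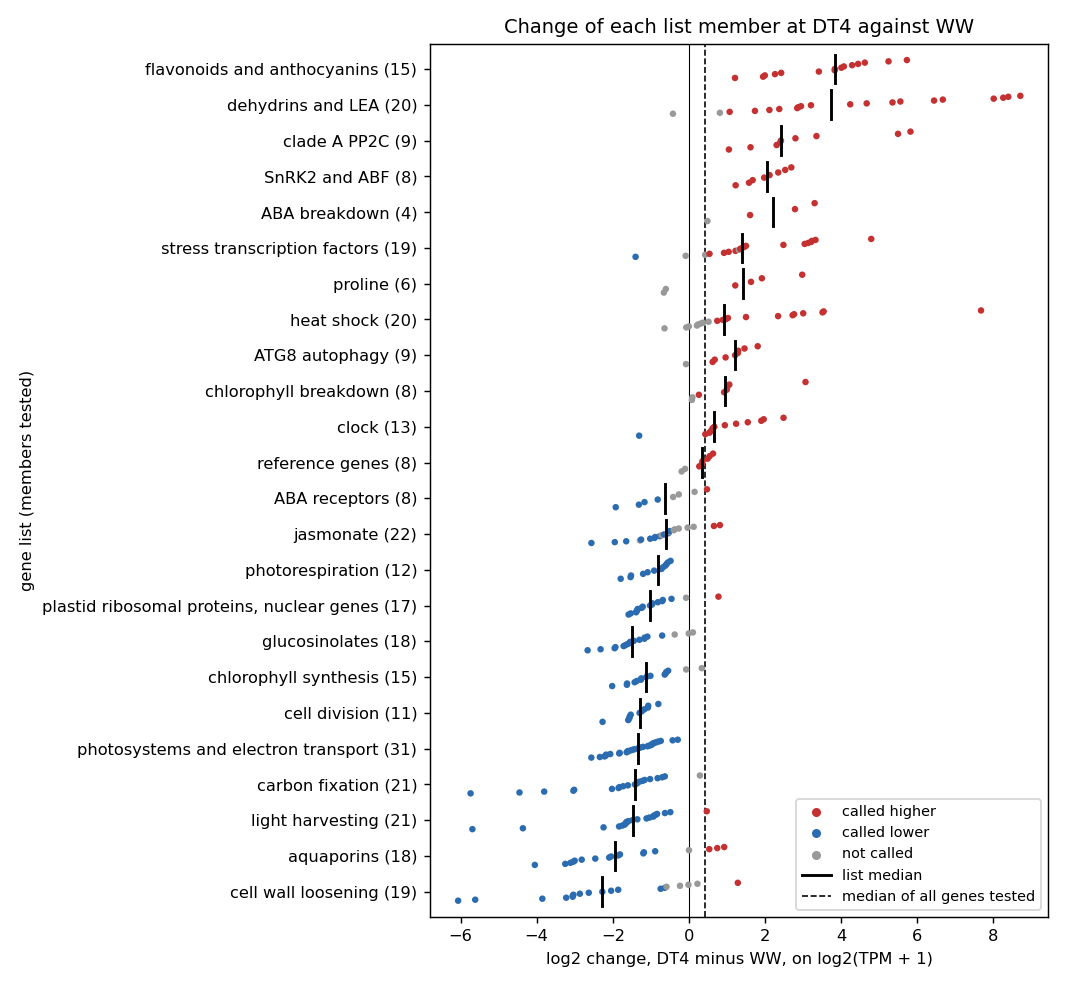
Each point is 1 tested gene of a list, placed by its log2 change at DT4 against WW (limma fit, log2(TPM + 1) scale, 2 libraries a group) and coloured by its call. The bar is the list median and the dashed line the median of all genes tested, 0.41. Flavonoid and dehydrin lists lie farthest to the right and aquaporin and cell wall loosening lists farthest to the left.

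Among genes with a mean of at least 10 TPM in either group, the 10 that rose most at DT4 include 2 lipid transfer proteins. RAB18, LEA7, LEA4-5 and LTI65 of the dehydrin and LEA list are among the 10 too. LTP4 (AT5G59310), which binds and carries lipids, stood at 3.91 and 1.90 TPM in WW and 3062 and 3574 TPM at DT4 (log2 9.78, SE 0.43, adjusted p = 3.0e-07). Its neighbour in the family, LTP3 (AT5G59320), stood at 22.1 and 17.9 TPM in WW and 8148 and 6610.0 TPM at DT4, a change of 8.46 (SE 0.34). The copies resemble each other, so the authors' counting could split reads between them and the single values are uncertain. The dehydrin RAB18 (AT5G66400) stood at 21.2 and 22.9 TPM in WW and 12416 and 7534 TPM at DT4 (log2 8.72, SE 0.28, adjusted p = 8.29e-08), and ranked next after 2 light harvesting genes by mean TPM at DT4, followed by LTP3. Those 2, CAB1 and LHB1B2, ranked highest in both groups. LEA7 (AT1G52690) stood at 1.59 and 0.71 TPM in WW and 922 and 545 TPM at DT4 (log2 8.40, SE 0.31, adjusted p = 1.44e-07), and LEA4-5 (AT5G06760) at 1.07 and 0.63 TPM in WW and 810.5 and 392 TPM at DT4. That the WW and DT4 libraries do not overlap was a condition for choosing these genes and is no result. DT4 library 1 held more of the LEA RNAs than library 2, for RAB18, LEA7 and LEA4-5 alike. LTI65 (AT5G52300), also known as RD29B and much used as a reporter of the ABA response, stood at 1.1 and 1.94 TPM in WW and 927 and 444 TPM at DT4 (log2 8.02). HSFA6A (AT5G43840), a heat shock factor, stood at 0.26 and 1.66 TPM in WW and 435 and 323 TPM at DT4 (log2 7.68, SE 0.49, adjusted p = 2.15e-06). SAG29 (AT5G13170), a sugar transporter known from senescing leaves, stood at 1.04 and 1.37 TPM in WW and 447 and 377 TPM at DT4 (log2 7.55, SE 0.38, adjusted p = 6.20e-07). The remaining members of the 10 largest rises, AT3G17520 (log2 8.39) and AT4G08570 (log2 8.11), carry no name in the annotation used here.

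The 10 largest falls under the same rule include genes of photosynthesis and of the growing wall. EXPA8 (AT2G40610), an expansin that loosens cell walls, stood at 119 and 125 TPM in WW and 0.07 and 2.13 TPM at DT4 (log2 -6.07, SE 0.41, adjusted p = 2.76e-06). XTH6 (AT5G65730), which cuts and rejoins wall xyloglucan, stood at 252 and 244 TPM in WW and 1.42 and 9.59 TPM at DT4 (log2 -5.62, SE 0.49). CA1 (AT3G01500), the main carbonic anhydrase of the chloroplast, stood at 2700.2 and 2635 TPM in WW and 22.5 and 105 TPM at DT4 (log2 -5.74, SE 0.51, adjusted p = 1.24e-05). DT4 library 2 held more of each of these 3 RNAs than library 1, and both lay far below WW. GER3 (AT5G20630), a germin-like protein of the wall, stood at 196 and 206 TPM in WW and 0.79 and 5.40 TPM at DT4 (log2 -5.90). DIR1 (AT5G48485), a lipid transfer protein needed for systemic immunity, stood at 54.2 and 25.2 TPM in WW and 0 TPM in both DT4 libraries. AT3G16670 stood at 60.5 and 72.3 TPM in WW and 0 TPM in both DT4 libraries (log2 -6.07, SE 0.16, adjusted p = 3.74e-08). AT2G10940 stood at 1467 and 1428 TPM in WW and 5.42 and 74.8 TPM at DT4 (log2 -6.04, SE 0.82). AT1G66100 fell by 5.71 and LHB1B1 (AT2G34430), 1 of the copies of the main light harvesting protein, by 5.69. AT5G44020 stood at 169.7 and 188 TPM in WW and 0.12 and 17.1 TPM at DT4, and its change of -5.32 was -3.31 without DT4 library 1. Over all genes tested, 3375 rose and 1611 fell by more than 1 on the log2 scale, and 1677 and 2468 did so after rescaling. Of the called genes, 80 that rose were listed at 0 in both WW libraries and 32 that fell were listed at 0 in both DT4 libraries.

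Genes of ABA synthesis, breakdown, perception and signalling are given in that order. Of 6 synthesis genes tested, 4 rose and 1 fell, close to the 48.3% and 16.4% of all genes for a list of this size, and 3 rose and 2 fell after rescaling. NCED3 (AT3G14440), the step that limits ABA synthesis under drought, stood at 4.72 and 3.68 TPM in WW and 24.7 and 14.5 TPM at DT4 (log2 1.95, SE 0.24, adjusted p = 9.76e-05). AAO3 (AT2G27150), the aldehyde oxidase of the final step, stood at 8.13 and 9.86 TPM in WW and 26.1 and 21.2 TPM at DT4 (log2 1.3, SE 0.17). ABA2 (AT1G52340), the dehydrogenase just before it, went the other way, at 29.8 and 29.1 TPM in WW and 10.4 and 14.3 TPM at DT4 (log2 -1.2, SE 0.15, adjusted p = 9.92e-05). ABA1 (AT5G67030), the zeaxanthin epoxidase that starts the route, was not called at 474 and 494 TPM in WW and 495 and 409 TPM at DT4 (log2 -0.11, adjusted p = 0.472). The synthesis genes thus included members on both sides. Of 4 CYP707A genes of ABA breakdown, whose enzymes hydroxylate ABA, 3 rose and 0 fell, also after rescaling. CYP707A1 (AT4G19230) stood at 2.24 and 2.07 TPM in WW and 37.7 and 24.1 TPM at DT4 (log2 3.31, SE 0.23, adjusted p = 3.0e-06). CYP707A2 (AT2G29090) stood at 4.1 and 4.82 TPM in WW and 41.6 and 32.4 TPM at DT4 (log2 2.79, SE 0.18), and CYP707A4 rose by 1.61. CYP707A3 (AT5G45340) overlapped between the groups at 4.84 and 12.9 TPM in WW and 9.90 and 13.7 TPM at DT4 and was not called, but without WW library 2 it was (log2 1.11, adjusted p = 0.0038). Its DT3 libraries stood higher, at 79.7 and 72.5 TPM.

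Receptor genes were lower on the whole, with a list median 1.03 below the median gene. Of 8 tested, 1 rose and 4 fell, and 0 rose and 6 fell after rescaling. Of all genes 48.3% rose and 16.4% fell, and 27.7% and 25.8% after rescaling. PYL1 (AT5G46790) stood at 28.8 and 30.2 TPM in WW and 10.4 and 12.2 TPM at DT4 (log2 -1.31, SE 0.14, adjusted p = 3.82e-05). RCAR3 (AT5G53160), the receptor PYL8, stood at 31.0 and 29.0 TPM in WW and 13.9 and 19.7 TPM at DT4 (log2 -0.82, SE 0.17, adjusted p = 0.00226). PYL4 (AT2G38310) differed between the DT4 libraries, at 2.13 and 23.8 TPM against 33.4 and 31.5 TPM in WW. Its change of -1.92 (adjusted p = 0.0342) was -0.43 (adjusted p = 0.139) without DT4 library 1 and -3.42 without DT4 library 2. Without WW library 1 or 2 it was not called either (adjusted p = 0.107 and 0.0961). RCAR1 (AT1G01360), the receptor PYL9, was called higher at 22.9 and 19.2 TPM in WW and 27.4 and 31.8 TPM at DT4 and lost that call after rescaling, and also without WW library 2 (adjusted p = 0.0845) or DT4 library 2 (adjusted p = 0.0602). The count of receptors called lower was 2 without either WW library or without DT4 library 1.

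Of the phosphatases 9 of 9 rose, also after rescaling, with a median 2.01 above the median gene. HAI1 (AT5G59220) stood at 2.58 and 1.4 TPM in WW and 194 and 89.2 TPM at DT4 (log2 5.50, SE 0.36, adjusted p = 2.28e-06). ABI2 (AT5G57050) stood at 12.2 and 12.8 TPM in WW and 179 and 105 TPM at DT4 (log2 3.35, SE 0.22, adjusted p = 2.40e-06), and AHG3 (AT3G11410), the most abundant of the 9, at 71.8 and 69.6 TPM in WW and 614 and 406 TPM at DT4 (log2 2.80, SE 0.19). HAI3 (AT2G29380) was at 0 TPM in both WW libraries and 5.44 and 3.30 TPM at DT4. For every one of the 9 the lower DT4 library exceeded the higher WW library. Of all genes tested, 83.4% had no overlap in one direction or the other. AHG1 (AT5G51760), known mainly from seeds, stayed under 2 TPM at 0.05 and 0 TPM in WW and 1.58 and 0.75 TPM at DT4, and its call was lost without WW library 2 (adjusted p = 0.0513) or DT4 library 1 (adjusted p = 0.0808). Of the kinases and ABF factors 8 of 8 rose, also after rescaling. SNRK2.3 (AT5G66880) reached 87.6 and 104 TPM at DT4 (log2 2.12, SE 0.15, adjusted p = 3.40e-06). OST1 (AT4G33950), the kinase of guard cells, stood at 9.98 and 8.61 TPM in WW and 33.6 and 26.3 TPM at DT4 (log2 1.58, SE 0.14). ABF4 (AT3G19290) stood at 26.7 and 29.2 TPM in WW and 208 and 133 TPM at DT4 (log2 2.53, SE 0.17, adjusted p = 2.88e-06), and ABI5 (AT2G36270), the related factor of seeds, reached 6.08 and 2.75 TPM. Against DT3, 9 of 9 phosphatases and 8 of 8 kinases and ABF factors were higher at DT4 (background 33.6%), and 0 of 8 receptors were higher and 5 lower (background 20.0%).

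**Figure D2:**
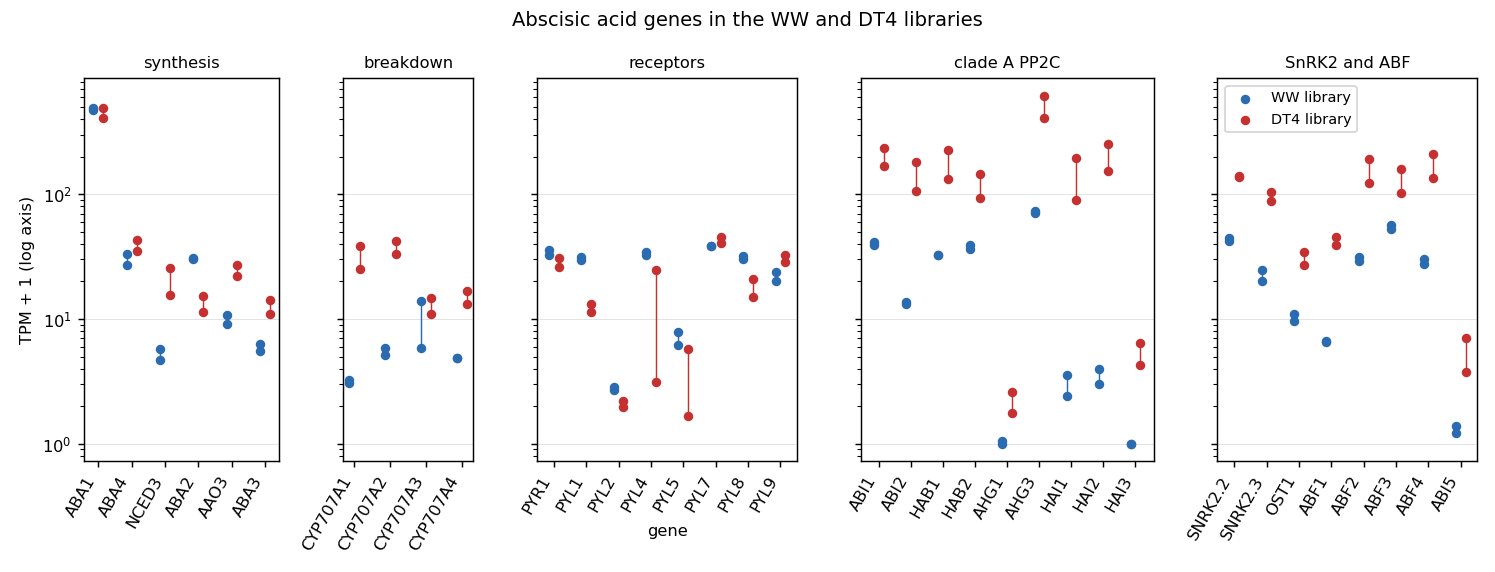
TPM + 1 of each tested ABA gene on a log axis, with 1 point per library (2 in WW, blue, and 2 at DT4, red) joined by a line. The phosphatases and the SnRK2 and ABF genes lie higher at DT4 without overlap, and the 2 DT4 libraries lie far apart for PYL4.

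Transcription factors of the drought response rose for the most part. Of 19 tested, 15 rose and 1 fell, and 12 rose and 1 fell after rescaling. Of all genes tested, 48.3% rose, and 27.7% after rescaling. ATHB7 (AT2G46680), a homeodomain factor induced by ABA, stood at 24.7 and 26.6 TPM in WW and 875 and 622 TPM at DT4 (log2 4.79, SE 0.23, adjusted p = 5.54e-07). Its close relative ATHB12 (AT3G61890) stood at 52.5 and 42.4 TPM in WW and 624 and 375 TPM at DT4 (log2 3.33, SE 0.20). DREB2A (AT5G05410), which acts in an ABA-independent branch, stood at 0.84 and 0.60 TPM in WW and 16.1 and 13.8 TPM at DT4 (log2 3.22, SE 0.19, adjusted p = 1.44e-06). All 3 were higher in both DT4 libraries than in either WW library, where 83.4% of all genes tested had no overlap in either direction. NAC019 (AT1G52890) stood at 6.39 and 6.68 TPM in WW and 73.5 and 58.2 TPM at DT4 and RD26 (AT4G27410), another NAC factor, rose by 3.04 (SE 0.20). CBF3 (AT4G25480), known from the cold response, stood at 0.59 and 1.26 TPM in WW and 21.1 and 13.4 TPM at DT4 (log2 3.23, SE 0.31). Of the 15 factors called higher, 3 were not called after rescaling. The exception among the called factors was ZAT12 (AT5G59820), a zinc finger factor of oxidative stress, at 3.42 and 6.36 TPM in WW and 1.12 and 1.2 TPM at DT4 (log2 -1.4, SE 0.27, adjusted p = 0.00123).

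RNA for protective proteins took a larger share of the total at DT4. Of 20 dehydrins and LEA genes 18 rose, and 18 rose and 1 fell after rescaling, with a median 3.31 above the median gene. Together they took 0.23% and 0.22% of TPM in WW and 3.03% and 1.94% at DT4. Members at 0 and members abundant in watered leaves both rose. XERO1 (AT3G50980) was at 0 TPM in both WW libraries and 54.3 and 39.3 TPM at DT4, whereas the dehydrin ERD14 (AT1G76180) went from 676 and 619 TPM to 2411 and 1933 TPM. SAG21 (AT4G02380), a LEA protein of mitochondria, stood at 13.6 and 27.8 TPM in WW and 1038 and 676 TPM at DT4 (log2 5.35, SE 0.31, adjusted p = 1.37e-06). COR15A (AT2G42540), a chloroplast protein of cold-acclimated leaves, stood at 186 and 177 TPM in WW and 2222 and 1286 TPM at DT4 (log2 3.21, SE 0.29, adjusted p = 1.38e-05). Its neighbour COR15B (AT2G42530) stood at 19.7 and 20.7 TPM in WW and 14.3 and 15.4 TPM at DT4 (log2 -0.42, adjusted p = 0.0696), and was called lower after rescaling. The seed LEA protein EM1 (AT3G51810) was at 0 TPM in both WW libraries and 8.33 and 4.80 TPM at DT4 (log2 2.88, SE 0.24, adjusted p = 9.65e-06).

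Proline, a solute that drying cells gather, is made by P5CS and P5CR and broken down by PRODH. Of 6 genes of its turnover 4 rose and 0 fell, and 4 rose and 1 fell after rescaling. Of all genes 48.3% rose and 16.4% fell, and 27.7% and 25.8% after rescaling. For a list of this size the count of rises is near the share of all genes before rescaling. P5CS1 (AT2G39800) stood at 213 and 202 TPM in WW and 1849 and 1463 TPM at DT4 (log2 2.98, SE 0.25, adjusted p = 8.50e-06). P5CR (AT5G14800), the second step, stood at 64.3 and 56.7 TPM in WW and 145 and 139 TPM at DT4 (log2 1.22, SE 0.11). PRODH1 (AT3G30775), the first step of breakdown, was not called at 8.84 and 10.9 TPM in WW and 4.60 and 7.41 TPM at DT4 (log2 -0.66, adjusted p = 0.0646). It was called lower after rescaling, and without DT4 library 2 (adjusted p = 0.0271). By contrast, ALDH12A1 (AT5G62530), the second step of breakdown, rose to 134 and 135 TPM from 34.8 and 34.9 TPM. Members of both making and breakdown thus rose. Without DT4 library 2 the list had 2 members called lower.

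Of 14 genes of raffinose, sucrose and starch 8 rose and 3 fell, and 6 rose and 3 fell after rescaling, near the shares of all genes before rescaling (48.3% and 16.4%). SUS3 (AT4G02280), a sucrose synthase known from seeds and guard cells, stood at 3.67 and 3.28 TPM in WW and 133 and 91.2 TPM at DT4 (log2 4.64, SE 0.18, adjusted p = 1.88e-07). GOLS2 (AT1G56600), which makes galactinol for raffinose, stood at 96.7 and 75.0 TPM in WW and 559 and 406 TPM at DT4 (log2 2.47, SE 0.17, adjusted p = 2.86e-06). Its relative GOLS1 (AT2G47180) overlapped between the groups at 208 and 155 TPM in WW and 221 and 148 TPM at DT4 (log2 0.01). The plastid beta-amylases parted: BAM1 (AT3G23920), the enzyme of daytime and stress starch breakdown, rose by 1.75 (SE 0.16), and BAM3 (AT4G17090), the enzyme of night breakdown, fell by 1.84 (SE 0.14). BAM3 stood at 179 and 180.0 TPM in WW and 47.7 and 51.1 TPM at DT4. The sucrose phosphate synthases parted too, SPS1F (AT5G20280) at 52.5 and 53.2 TPM in WW and 256 and 191 TPM at DT4 (log2 2.04) and SPS4F (AT4G10120) at 85.0 and 87.0 TPM in WW and 39.6 and 62.1 TPM at DT4 (log2 -0.78). The fall of SPS4F was -0.46 (adjusted p = 0.0729) without DT4 library 1.

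The flavonoid and anthocyanin pathway rose as a whole: 15 of 15 genes tested rose, also after rescaling, with a median 3.42 above the median gene. Flavonoids are phenolic compounds that absorb light and scavenge oxidants, and anthocyanins are the red pigments among them. Among the regulators, PAP2 (AT1G66390), a MYB factor of anthocyanin synthesis, stood at 0.92 and 0.63 TPM in WW and 135 and 64.3 TPM at DT4 (log2 5.73, SE 0.49, adjusted p = 9.85e-06). Its relative PAP1 (AT1G56650) started higher, at 58.7 and 32.0 TPM in WW and 276 and 205 TPM at DT4 (log2 2.43, SE 0.27, adjusted p = 4.84e-05). TT8 (AT4G09820), the bHLH partner of these MYB factors, stood at 1.81 and 1.25 TPM in WW and 54.3 and 31.5 TPM at DT4 (log2 4.07, SE 0.23). MYB12 and MYB111, which act on the early flavonol steps, rose by 2.00 and 1.95, to 2.81 to 7.06 TPM. Among the enzymes, CHS (AT5G13930), chalcone synthase at the entry of the pathway, stood at 230.5 and 192 TPM in WW and 3881 and 2347 TPM at DT4 (log2 3.83, SE 0.24, adjusted p = 2.06e-06). F3H (AT3G51240) stood at 50.8 and 46.2 TPM in WW and 1066 and 593 TPM at DT4, and FLS1 (AT5G08640), the branch to flavonols, at 18.9 and 16.9 TPM in WW and 46.6 and 39.3 TPM at DT4. FLS1 had the smallest change of the list, 1.21 (SE 0.19). On the branch to anthocyanins, DFR (AT5G42800) stood at 48.2 and 30.1 TPM in WW and 1702 and 1297 TPM at DT4 (log2 5.25, SE 0.20, adjusted p = 1.70e-07) and LDOX (AT4G22880) at 39.8 and 30.4 TPM in WW and 945 and 644 TPM at DT4 (log2 4.45, SE 0.20, adjusted p = 3.45e-07). GSTF12 (AT5G17220), needed to bring anthocyanins into the vacuole, stood at 27.3 and 23.7 TPM in WW and 575 and 464 TPM at DT4 (log2 4.29, SE 0.17, adjusted p = 1.95e-07). The groups overlapped for none of these genes, and they did not overlap for 83.4% of all genes tested either. DT4 library 1 was the higher DT4 library for all 15.

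**Figure D3:**
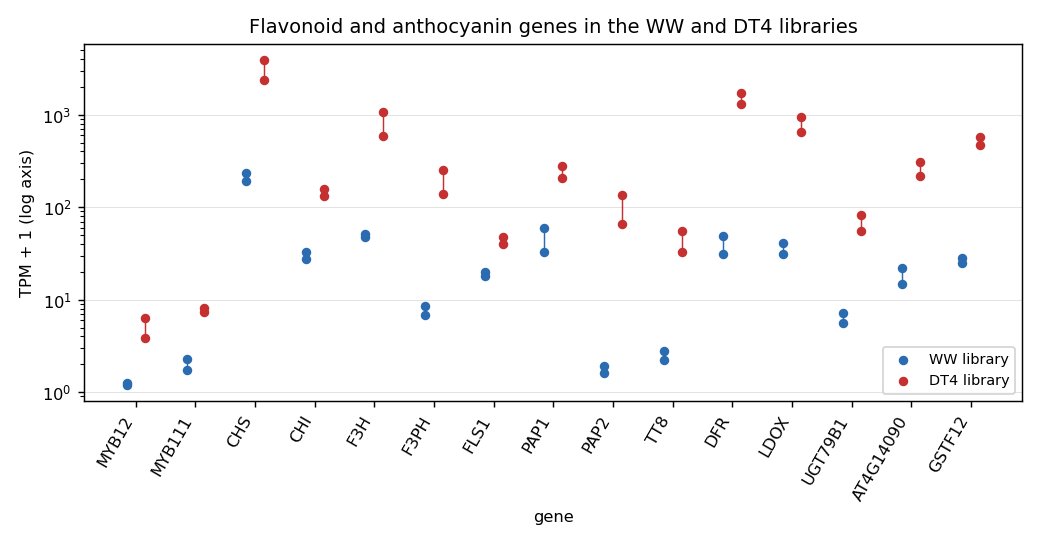
TPM + 1 of the 15 tested flavonoid and anthocyanin genes on a log axis, with 1 point per library (2 in WW, blue, and 2 at DT4, red). All 15 lie higher at DT4 without overlap, from FLS1 with the smallest step to PAP2 with the largest.

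Genes of the cuticle did not move together. Of 15 genes of wax, cuticle and lipid transfer, 9 rose and 4 fell, and 8 rose and 5 fell after rescaling. Of all genes 48.3% rose and 16.4% fell, and 27.7% and 25.8% after rescaling, so all genes together were mixed too. MYB94 (AT3G47600), an activator of wax synthesis, stood at 9.81 and 6.82 TPM in WW and 55.8 and 45.8 TPM at DT4 (log2 2.49, SE 0.20, adjusted p = 7.24e-06). CER1 (AT1G02205), which makes the alkanes of leaf wax, stood at 50.7 and 47.1 TPM in WW and 171 and 143 TPM at DT4 (log2 1.66, SE 0.17), while its partner CER3 (AT5G57800) fell by 0.53 (SE 0.10), from 54.6 and 53.8 TPM to 37.4 and 37.0 TPM. KCS1 (AT1G01120), which lengthens fatty acids, stood at 98.1 and 112 TPM in WW and 21.9 and 24.8 TPM at DT4 (log2 -2.13, SE 0.12, adjusted p = 1.27e-06). LTP2 (AT2G38530) stood at 41.9 and 46.7 TPM in WW and 338 and 353 TPM at DT4 (log2 2.94, SE 0.15, adjusted p = 7.88e-07). Of 11 genes of leaf lipid droplets 6 rose and 2 fell, and 5 rose and 3 fell after rescaling, near the shares of all genes (48.3% and 16.4%, and 27.7% and 25.8% after rescaling). AT1G67360 stood at 40.8 and 32.9 TPM in WW and 385 and 259 TPM at DT4 (log2 3.07, SE 0.23, adjusted p = 4.85e-06), and DGAT1 (AT2G19450), which makes triacylglycerol, at 0.59 and 0.85 TPM in WW and 7.14 and 6.44 TPM at DT4 (log2 2.18, SE 0.19, adjusted p = 1.17e-05). CLO4 (AT1G70670), a caleosin, fell by 1.11 (SE 0.22). Without any 1 of the 4 libraries 1 gene of this list in place of 2 was called lower.

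Nuclear genes of photosynthesis fell almost throughout. Of 21 light harvesting genes 20 fell, of 31 genes of the photosystems and electron transport 31, of 21 genes of carbon fixation 20, and of 12 photorespiration genes 12, each also after rescaling, beside 16.4% of all genes (25.8% after rescaling). Relative to the median gene the list medians lay at -1.89, -1.76, -1.83 and -1.23. Light harvesting genes took 12.7% and 13.9% of all TPM in WW and 5.42% and 6.58% at DT4. Photosystem genes took 9.55% and 9.90% in WW and 3.36% and 4.29% at DT4, and carbon fixation genes 6.50% and 6.63% in WW and 1.49% and 2.09% at DT4. In each of the 3 lists DT4 library 1 held the smaller share.

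**Figure D4:**
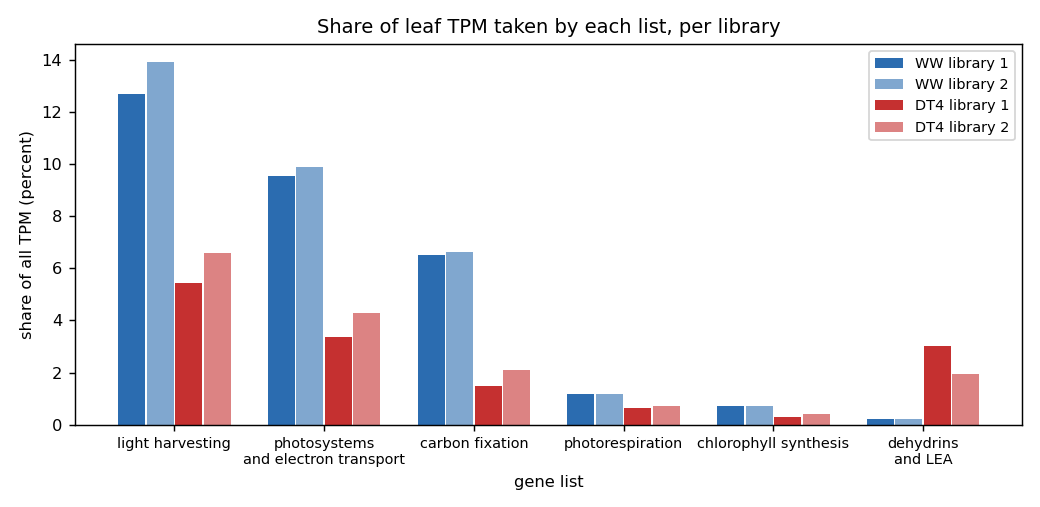
Share of all TPM, in percent, taken by 6 gene lists in each WW (blue) and DT4 (red) library, with 1 bar per library. The 5 lists of photosynthesis and chlorophyll are lower in both DT4 libraries, and the dehydrin and LEA list rises from 0.23% and 0.22% to 3.03% and 1.94%.

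Within the light harvesting family the copies differed in how far they fell. LHCB2.3 (AT3G27690) stood at 2829 and 3010.5 TPM in WW and 83.1 and 238 TPM at DT4 (log2 -4.36, SE 0.36, adjusted p = 8.27e-06). LHB1B2 (AT2G34420) stood at 17165 and 18409 TPM in WW and 12434 and 12928 TPM at DT4, a change of -0.49 (adjusted p = 0.0346), whose call was lost without WW library 1 (adjusted p = 0.0941) or 2 (adjusted p = 0.165). LHCB6 (AT1G15820), a minor antenna of photosystem II, stood at 4602 and 5043 TPM in WW and 791 and 1306 TPM at DT4 (log2 -2.24, SE 0.20, adjusted p = 1.13e-05). The LHCB1 and LHCB2 copies share much sequence, so their single values are uncertain. LHCB7 (AT1G76570), a rare relative, was the exception at 22.0 and 22.0 TPM in WW and 34.6 and 27.6 TPM at DT4, called higher before rescaling and not after. Its change of 0.47 was not called without WW library 1 (adjusted p = 0.0821) or 2 (adjusted p = 0.0854), nor, at 0.31, without DT4 library 1 (adjusted p = 0.166).

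Among photosystem genes PSBQ1 (PSBQA, AT4G21280), part of the oxygen evolving complex, stood at 2302 and 2414 TPM in WW and 316 and 501 TPM at DT4 (log2 -2.56, SE 0.18, adjusted p = 3.40e-06). PSAN (AT5G64040), a subunit of photosystem I, stood at 2929.5 and 3129 TPM in WW and 489.7 and 727 TPM at DT4 (log2 -2.34, SE 0.16, adjusted p = 3.40e-06). The smallest fall was that of FNR1 (AT5G66190), the reductase that makes NADPH, at 959.6 and 942 TPM in WW and 756 and 797 TPM at DT4 (log2 -0.29, adjusted p = 0.0229). Its call was lost without WW library 1 (adjusted p = 0.101) or 2 (adjusted p = 0.0789) and without DT4 library 1 (adjusted p = 0.0647). PSBR (AT1G79040) kept the highest level of the list at DT4, 5848 and 6791 TPM against 11321 and 11365 TPM in WW.

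For carbon fixation, the small subunits of Rubisco fell unequally. RBCS1A (AT1G67090) stood at 14624 and 14908 TPM in WW and 3569 and 5571 TPM at DT4 (log2 -1.73, SE 0.22, adjusted p = 1.19e-04). RBCS3B (AT5G38410) stood at 7629.9 and 7997 TPM in WW and 369 and 845 TPM at DT4 (log2 -3.80, SE 0.30, adjusted p = 6.05e-06), and RBCS2B (AT5G38420) at 6191 and 6032 TPM in WW and 128 and 603 TPM at DT4 (log2 -4.45, SE 0.54). These copies are near identical and their reads may be split unevenly. RCA (AT2G39730), which activates Rubisco, stood at 9739.9 and 9666 TPM in WW and 2444 and 2967 TPM at DT4 (log2 -1.85, SE 0.15, adjusted p = 7.32e-06). CP12-1 (AT2G47400), a small protein that holds Calvin cycle enzymes inactive in the dark, was the member not called, at 811 and 935 TPM in WW and 1044 and 1086 TPM at DT4 (log2 0.29, -0.11 after rescaling), whereas CP12-2 (AT3G62410) stood at 798 and 918 TPM in WW and 155 and 285 TPM at DT4 (log2 -2.02, SE 0.22, adjusted p = 4.25e-05). In photorespiration, SHM1 (AT4G37930), the mitochondrial serine hydroxymethyltransferase, stood at 1390.5 and 1369.6 TPM in WW and 534 and 671 TPM at DT4 (log2 -1.2, SE 0.12, adjusted p = 3.17e-05). GLDP1 (AT4G33010) had the smallest fall at 1850.0 and 1691 TPM in WW and 1264 and 1269 TPM at DT4 (log2 -0.48), and its call was lost without any 1 of the 4 libraries (adjusted p from 0.0698 to 0.147).

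RNA of most chlorophyll synthesis genes fell and RNA of most chlorophyll breakdown genes rose. Of 15 synthesis genes 13 fell, and 14 after rescaling, beside 16.4% and 25.8% of all genes. HEMA1 (AT1G58290), the step that limits entry to the pathway, stood at 562 and 579.9 TPM in WW and 123 and 161 TPM at DT4 (log2 -2.02, SE 0.16, adjusted p = 6.42e-06). CHLH (GUN5, AT5G13630), the large subunit of magnesium chelatase, stood at 958 and 971 TPM in WW and 282 and 346 TPM at DT4 (log2 -1.62, SE 0.19, adjusted p = 6.57e-05). PORB (AT4G27440), a protochlorophyllide reductase, differed between the DT4 libraries, at 342 and 333 TPM in WW and 291 and 627 TPM at DT4, and was not called. Without DT4 library 1 it was called higher (log2 0.89). Of 8 breakdown genes 6 rose and 0 fell, and 5 rose and 0 fell after rescaling. Of all genes 48.3% rose, and 27.7% after rescaling, and the median of the breakdown list lay 0.55 above the median gene. SGR2 (AT4G11910), a relative of the Stay-Green protein, stood at 2.3 and 1.49 TPM in WW and 23.9 and 22.1 TPM at DT4 (log2 3.07, SE 0.27, adjusted p = 1.24e-05). SGR1 (NYE1, AT4G22920), the Stay-Green protein, stood at 20.0 and 21.2 TPM in WW and 42.0 and 42.9 TPM at DT4 (log2 1.01, SE 0.12). PAO (ACD1, AT3G44880), the oxygenase that opens the chlorophyll ring, stood at 65.8 and 60.7 TPM in WW and 144 and 123 TPM at DT4 (log2 1.06, SE 0.10, adjusted p = 1.71e-05). The 2 members not called were HCAR and NOL.

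Of 8 senescence genes tested, 4 rose and 1 fell, and 3 rose and 2 fell after rescaling. Those shares are near the background of 48.3% and 16.4% (27.7% and 25.8% after rescaling), so the count shows nothing particular to the list. SAG12 (AT5G45890), a cysteine protease and the best known marker of leaf senescence, was at 0 TPM in both WW libraries and 95.3 and 114 TPM at DT4 (log2 6.72, SE 1.0, adjusted p = 2.91e-04). SAG13 (AT2G29350) stood at 4.08 and 6.09 TPM in WW and 9.59 and 20.0 TPM at DT4 (log2 1.31), and at 0.82 without DT4 library 2. SEN1 (AT4G35770), a gene induced by dark, fell by 1.3 (SE 0.23), at 18.6 and 29.4 TPM in WW and 7.34 and 10.7 TPM at DT4. Leaving out WW library 1 gave 3 senescence genes called lower, and leaving out DT4 library 2 gave 2. The NAC factors of leaf aging rose: ORE1 (AT5G39610) stood at 24.4 and 27.2 TPM in WW and 66.5 and 68.0 TPM at DT4 (log2 1.35, SE 0.11) and NAP (AT1G69490) at 57.2 and 67.8 TPM in WW and 151 and 143 TPM at DT4 (log2 1.23, SE 0.16). Of 9 ATG8 genes, whose proteins coat the membranes of autophagy, 8 rose, and 6 after rescaling. ATG8D (AT2G05630) stood at 13.3 and 12.6 TPM in WW and 49.5 and 46.4 TPM at DT4 (log2 1.81, SE 0.13, adjusted p = 3.34e-06). Of 11 genes of dark response and branched-chain amino acid breakdown 7 rose and 0 fell, and 4 rose and 0 fell after rescaling. For a list of this size the counts of rises are near the shares of all genes, 48.3% and after rescaling 27.7%. They show no rise particular to the list. BCAT2 (BCAT-2, AT1G10070), the aminotransferase of the first step, stood at 2.16 and 1.96 TPM in WW and 68.2 and 56.2 TPM at DT4 (log2 4.36, SE 0.14, adjusted p = 8.29e-08). IVD (AT3G45300), a later mitochondrial step, rose by 1.35 (SE 0.12). DIN2 (AT3G60140), a beta-glucosidase of sugar-starved leaves, differed between the DT4 libraries, at 0 TPM in both WW libraries and 1.89 and 35.3 TPM at DT4. Its change of 3.36 was 5.18 without DT4 library 1 and 1.53 without DT4 library 2.

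Water channels and wall loosening genes were among the lists with the lowest medians. Of 18 aquaporins 3 rose and 14 fell, and 1 rose and 14 fell after rescaling, with a median 2.36 below the median gene. In the vacuole membrane, TIP2;1 (DELTA-TIP, AT3G16240) stood at 752 and 761 TPM in WW and 29.2 and 68.2 TPM at DT4 (log2 -4.05, SE 0.31). TIP1;1 (GAMMA-TIP, AT2G36830) stood at 468 and 423 TPM in WW and 51.8 and 54.7 TPM at DT4 (log2 -3.04, SE 0.15, adjusted p = 5.95e-07), and TIP1;2 (AT3G26520) at 1911 and 1714 TPM in WW and 171 and 296 TPM at DT4 (log2 -3.0, SE 0.20, adjusted p = 2.70e-06). The groups did not overlap for these 3 tonoplast channels, nor for 83.4% of all genes tested. In the plasma membrane, PIP2;7 (PIP3, AT4G35100) stood at 634 and 532 TPM in WW and 156 and 174 TPM at DT4 (log2 -1.81, SE 0.12, adjusted p = 2.51e-06). PIP1;3 (PIP1C, AT1G01620) stood at 253 and 256 TPM in WW and 28.4 and 43.8 TPM at DT4 (log2 -2.82, SE 0.20, adjusted p = 3.92e-06). PIP1;4 (AT4G00430) rose, also after rescaling, at 226 and 206 TPM in WW and 408 and 323 TPM at DT4 (log2 0.75, SE 0.12, adjusted p = 3.72e-04). The other 2 aquaporins called higher were not called after rescaling.

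Of 19 expansin and XTH genes 1 rose and 14 fell, and 1 rose and 16 fell after rescaling, with a median 2.69 below the median gene, the lowest of all lists. XTH7 (AT4G37800) stood at 251 and 229 TPM in WW and 11.2 and 21.6 TPM at DT4 (log2 -3.85, SE 0.28, adjusted p = 3.81e-06), and XTH8 (AT1G11545) at 20.1 and 20.9 TPM in WW and 0.60 and 2.3 TPM at DT4 (log2 -3.23, SE 0.29, adjusted p = 1.32e-05). EXPA1 (AT1G69530) stood at 264 and 239 TPM in WW and 23.7 and 66.0 TPM at DT4 (log2 -2.63, SE 0.37). The member that rose was XTH5 (AT5G13870), at 3.27 and 3.0 TPM in WW and 8.28 and 9.96 TPM at DT4 (log2 1.29, SE 0.17, adjusted p = 1.54e-04). TCH4 (AT5G57560), a touch-induced XTH, overlapped between the groups at 21.1 and 53.8 TPM in WW and 37.2 and 42.4 TPM at DT4 and was not called, though without WW library 2 it was (log2 0.88). Of 8 cellulose synthases 5 fell, and 6 after rescaling, beside 16.4% and 25.8% of all genes. CESA1 (AT4G32410) and CESA3 (AT5G05170), core subunits of primary walls, were not called at 213 and 199 TPM in WW and 256 and 214 TPM at DT4 and at 214 and 198 TPM in WW and 254 and 223 TPM at DT4, and both lay lower than WW after rescaling (-0.22 and -0.19), without a call. CESA5 (AT5G09870) stood at 107 and 105 TPM in WW and 48.2 and 49.9 TPM at DT4 (log2 -1.09, SE 0.12, adjusted p = 3.47e-05), and CESA8 (IRX1, AT4G18780), of secondary walls, fell by 0.98 (SE 0.20). All 11 cell division genes tested fell, also after rescaling. KNOLLE (SYP111, AT1G08560), which builds the wall between daughter cells, stood at 16.2 and 10.8 TPM in WW and 1.91 and 2.00 TPM at DT4 (log2 -2.27, SE 0.22, adjusted p = 2.24e-05). The mitotic cyclin CYCB1;2 (CYC1BAT, AT5G06150) stood at 6.03 and 4.54 TPM in WW and 1.11 and 1.14 TPM at DT4 (log2 -1.55, SE 0.23, adjusted p = 2.45e-04). These genes were low in watered leaves already, and with a filter of 5 TPM 4 of them could be tested and called.

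Of 22 jasmonate genes 2 rose and 11 fell, and 1 rose and 17 fell after rescaling, beside 16.4% and 25.8% of all genes that fell. LOX2 (AT3G45140), which starts jasmonate synthesis in the chloroplast, stood at 1091 and 699 TPM in WW and 127 and 169.6 TPM at DT4 (log2 -2.56, SE 0.25, adjusted p = 2.31e-05). JAZ9 (TIFY7, AT1G70700), a repressor of the pathway, stood at 337 and 267 TPM in WW and 97.5 and 92.7 TPM at DT4 (log2 -1.65, SE 0.15, adjusted p = 1.37e-05). COI1 (AT2G39940), the jasmonate receptor, rose, at 26.0 and 25.0 TPM in WW and 49.3 and 42.4 TPM at DT4 (log2 0.82, SE 0.12, adjusted p = 2.19e-04). PDF1.2 (AT5G44420), a defensin, was at 2.57 and 3.17 TPM in WW and 0 TPM in both DT4 libraries. VSP2 (AT5G24770), a storage protein and jasmonate marker, overlapped at 243 and 142 TPM in WW and 178 and 89.1 TPM at DT4 and was not called (log2 -0.55, from -1.05 to -0.06 with 1 library left out). WW library 1 lay above WW library 2 for LOX2, VSP2 and MYC2, and without it 7 in place of 11 jasmonate genes were called lower. 

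Of 16 genes of salicylate and immunity 0 rose and 2 fell by limma, and 5 fell after rescaling. The share that fell is near that of all genes, 16.4% and after rescaling 25.8%. The share that rose is not: 0 rose under either scaling, beside 48.3% and 27.7% of all genes. The list median lay 0.52 below the median gene. EDS1 (AT3G48090) stood at 11.2 and 14.1 TPM in WW and 6.48 and 9.09 TPM at DT4 and WRKY70 (AT3G56400) at 36.6 and 61.6 TPM in WW and 12.01 and 33.4 TPM at DT4. EDS1 is a hub of basal and receptor-driven immunity, and WRKY70 a factor between the salicylate and jasmonate branches. Their changes of -0.64 and -1.2 were -0.43 (adjusted p = 0.117) and -0.50 (adjusted p = 0.236) without DT4 library 1. Without WW library 2 they were -0.48 (adjusted p = 0.119) and -0.83 (adjusted p = 0.182), so that neither fit called a member lower. Without DT4 library 2 the WRKY70 value was -1.90, and 5 members were called lower.

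Glucosinolates, the mustard oil precursors of the order Brassicales, had less RNA of their enzymes. Of 18 genes 15 fell and 0 rose, and 16 fell after rescaling. CYP83B1 (AT4G31500), on the indole branch, stood at 482 and 384 TPM in WW and 67.0 and 109 TPM at DT4 (log2 -2.32, SE 0.24, adjusted p = 3.25e-05). CYP79B3 (AT2G22330) of the same branch stood at 118 and 98.2 TPM in WW and 33.1 and 31.0 TPM at DT4 (log2 -1.72, SE 0.16, adjusted p = 1.68e-05). MAM3 (IMS2, AT5G23020), which lengthens the methionine chain on the aliphatic branch, stood at 40.3 and 29.4 TPM in WW and 2.35 and 8.35 TPM at DT4 (log2 -2.66, SE 0.38). TGG1 (AT5G26000), the myrosinase that cleaves glucosinolates, stood at 3140.4 and 2947 TPM in WW and 1069.8 and 999 TPM at DT4 (log2 -1.56, SE 0.15, adjusted p = 1.89e-05). The factor MYB28 (AT5G61420), which drives the aliphatic branch, was not called, at 122 and 113 TPM in WW and 106 and 150.3 TPM at DT4, and its groups overlapped.

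Of 20 heat shock genes tested, beside 48.3% of all genes called higher, 12 rose and 0 fell, and 10 rose and 1 fell after rescaling. HSP70-4 (HSP70, AT3G12580) stood at 38.5 and 30.4 TPM in WW and 360.3 and 220.3 TPM at DT4 (log2 3.01, SE 0.20, adjusted p = 2.52e-06). The small heat shock protein HSP22.0 (AT4G10250) was at 0 TPM in both WW libraries and 12.6 and 9.01 TPM at DT4 (log2 3.54, SE 0.23, adjusted p = 2.06e-06), and HSP21 (AT4G27670) of the chloroplast at 0 TPM in both WW libraries and 7.73 and 4.3 TPM at DT4. The chaperone HSP101 (AT1G74310) was not called at 4.68 and 4.85 TPM in WW and 6.90 and 5.42 TPM at DT4. Of 20 genes against oxidants and of alternative respiration 10 rose and 5 fell, and 7 rose and 8 fell after rescaling. Before rescaling these shares are near the 48.3% and 16.4% of all genes, and after it the background is 27.7% and 25.8%. CAT3 (AT1G20620), a catalase, stood at 2511 and 2127 TPM in WW and 3969 and 4458 TPM at DT4 (log2 0.86, SE 0.15), and CAT2 (AT4G35090), the catalase of photorespiration, fell to 539.6 and 526 TPM from 991 and 861 TPM. TAPX (AT1G77490), the peroxidase of the thylakoid, stood at 123 and 132 TPM in WW and 22.4 and 36.5 TPM at DT4 (log2 -2.12, SE 0.18, adjusted p = 1.05e-05). CSD2 (AT2G28190), a copper/zinc superoxide dismutase of the chloroplast, stood at 142 and 161 TPM in WW and 51.5 and 55.8 TPM at DT4 (log2 -1.48, SE 0.15, adjusted p = 2.82e-05). AOX1D (AT1G32350), an alternative oxidase of mitochondria, stood at 0.11 and 0 TPM in WW and 7.11 and 11.7 TPM at DT4 (log2 3.27, SE 0.27, adjusted p = 7.91e-06). NDB2 (AT4G05020), an NADH dehydrogenase of the same route, rose by 1.38 (SE 0.15).

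In nitrogen metabolism 4 of 15 genes rose and 5 fell, and 3 rose and 8 fell after rescaling. Of all genes tested, 48.3% rose and 16.4% fell, and 27.7% and 25.8% after rescaling. GLN2 (GS2, AT5G35630), the glutamine synthetase of the chloroplast, stood at 1047 and 1000.3 TPM in WW and 332 and 413 TPM at DT4 (log2 -1.47, SE 0.12, adjusted p = 8.09e-06). Cytosolic forms rose: GLN1;1 (AT5G37600) stood at 56.5 and 56.5 TPM in WW and 122 and 164 TPM at DT4 (log2 1.31, SE 0.19) and GLN1;3 (AT3G17820) at 53.2 and 38.9 TPM in WW and 144 and 123 TPM at DT4 (log2 1.53, SE 0.16, adjusted p = 3.03e-05). GLN1;2 (AT1G66200), also cytosolic, fell by 1.25 (SE 0.20). GLU1 (AT5G04140), the glutamate synthase that works with GLN2, stood at 465 and 477 TPM in WW and 221 and 239 TPM at DT4 (log2 -1.03, SE 0.15, adjusted p = 3.0e-04). Without DT4 library 2, 9 genes of the list were called lower.

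Genes of the circadian clock were mostly called higher, 12 of 13 with 1 lower, and 6 higher and 1 lower after rescaling. Over all genes tested 48.3% were higher and 16.4% lower, and 27.7% and 25.8% after rescaling. The evening genes ELF4 (AT2G40080) and GI (AT1G22770) stood at 0.36 and 0.18 TPM in WW and 5.26 and 7.08 TPM at DT4 and at 9.99 and 8.13 TPM in WW and 30.6 and 26.2 TPM at DT4, changes of 2.49 (SE 0.27) and 1.55 (SE 0.16). PRR5 (AT5G24470) stood at 0.56 and 0.46 TPM in WW and 5.12 and 4.69 TPM at DT4 (log2 1.97, SE 0.18, adjusted p = 1.64e-05). LUX (PCL1, AT3G46640), the partner of ELF3 and ELF4 in the evening complex, went the other way, at 4.69 and 4.19 TPM in WW and 1.4 and 1.01 TPM at DT4 (log2 -1.31, SE 0.21, adjusted p = 4.60e-04). The morning genes CCA1 (AT2G46830) and LHY (AT1G01060) were called higher before rescaling only, CCA1 at 140.2 and 144 TPM in WW and 239 and 179.8 TPM at DT4. Without DT4 library 1 the change of CCA1 was 0.34 in place of 0.54 and that of LHY 0.39 in place of 0.62. The hour of harvest of each library is not given, so hour and drought cannot be told apart for these genes.

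Guard cell genes moved both ways. Of 9 tested 3 rose and 3 fell, and 3 rose and 5 fell after rescaling. Of all genes 48.3% rose and 16.4% fell, and 27.7% and 25.8% after rescaling, so all genes together were mixed too. GORK (AT5G37500), the channel that lets potassium out as stomata close, stood at 1.71 and 1.81 TPM in WW and 27.7 and 20.9 TPM at DT4 (log2 3.18, SE 0.18, adjusted p = 1.2e-06). SLAC1 (AT1G12480), the anion channel of closing, stood at 2.65 and 1.66 TPM in WW and 5.98 and 6.14 TPM at DT4 (log2 1.18, SE 0.25, adjusted p = 0.00232). KAT1 (AT5G46240), a channel of potassium uptake on opening, stood at 8.50 and 9.53 TPM in WW and 2.71 and 3.46 TPM at DT4 (log2 -1.3, SE 0.22, adjusted p = 5.99e-04), and MYB60 (AT1G08810), a factor of opening, fell by 1.14 (SE 0.26). FAMA (AT3G24140), which gives guard cells their identity, was not called, at 17.1 and 15.7 TPM in WW and 14.2 and 15.8 TPM at DT4, but was called lower after rescaling (log2 -0.49, adjusted p = 0.0137).

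Of the other hormones, 4 of 8 type-A response regulators, which cytokinin induces, fell and 0 rose, and 6 fell after rescaling. Of all genes 16.4% fell, and 25.8% after rescaling. ARR15 (AT1G74890) stood at 6.39 and 7.68 TPM in WW and 0.27 and 0.88 TPM at DT4 (log2 -2.37, SE 0.32, adjusted p = 1.69e-04). ARR4 (AT1G10470) fell by 0.91 (SE 0.19). The count was 2 without either WW library or without DT4 library 1. Of 12 ethylene genes 6 rose and 3 fell, and 5 and 5 after rescaling, again near the 48.3% and 16.4% of all genes before rescaling. ACO4 (EFE, AT1G05010), which makes ethylene, stood at 168 and 167 TPM in WW and 51.7 and 74.7 TPM at DT4 (log2 -1.42, SE 0.16, adjusted p = 4.57e-05), while ACS2 (AT1G01480), which makes its precursor, stood at 0.09 and 0.04 TPM in WW and 3.89 and 5.23 TPM at DT4 (log2 2.37, SE 0.20, adjusted p = 9.87e-06). EBF2 (AT5G25350), a brake on ethylene signalling, stood at 61.8 and 56.6 TPM in WW and 152 and 148 TPM at DT4 (log2 1.33, SE 0.09, adjusted p = 2.44e-06). Of 11 gibberellin and brassinosteroid genes 3 rose and 3 fell, and 3 rose and 6 fell after rescaling. All genes tested were mixed too, at 48.3% and 16.4%, and at 27.7% and 25.8% after rescaling. GA3OX1 (AT1G15550) stood at 14.8 and 13.8 TPM in WW and 34.2 and 38.7 TPM at DT4 (log2 1.29, SE 0.14, adjusted p = 3.44e-05), and GA20OX1 (AT4G25420), the step before it, fell by 1.06 (SE 0.23).

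DT4 was set against its neighbours by tests of those differences, which share the DT4 libraries with the comparison above. Against DT3, 6356 genes were higher at DT4 (33.6%) and 3788 lower (20.0%). From DT4 to DT5, 3021 were higher (16.0%) and 5747 lower (30.3%). Of 20 dehydrin and LEA genes 17 were higher again at DT5 and 1 lower, and of 31 photosystem genes 31 were lower again. Of 15 flavonoid genes, 15 were higher at DT4 than at DT3, and at DT5 1 was higher than at DT4 and 0 lower. Of 11 cell division genes, 11 were lower at DT4 than at DT3, and at DT5 1 was higher than at DT4 and 4 lower. RAB18 reached 35410.0 and 39236 TPM at DT5, and RBCS1A fell to 494 and 354 TPM. HSFA6A, by contrast, stood at 5.26 and 19.7 TPM at DT3 and 221 and 204 TPM at DT5, and its level at DT5 was not called different from DT4 (DT5 minus DT4 -0.82, SE 0.49, adjusted p = 0.201). DT4 was higher than WW, DT3 and DT5 for 1046 genes (5.52%) and lower than all 3 for 133 (0.702%). After rescaling these were 357 and 310, and the first was 613 without DT4 library 1.

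The genes named next were chosen by their differences between DT4 and WW, DT3 and DT5, so those differences are no separate result. The senescence protease gene SAG12 had the largest such difference. Its RNA was at 0 in the 6 libraries of WW, DT2 and DT3, at 95.3 and 114 TPM at DT4, and at 21.1 and 0.07 TPM at DT5 (DT5 minus DT4 -4.44, SE 1.0, adjusted p = 0.00515). AT14A, listed under both AT3G28290 and AT3G28300 with the same values, stood at 23.9 and 16.4 TPM in WW, 21.9 and 26.8 TPM at DT3, 278 and 212 TPM at DT4 and 58.0 and 36.6 TPM at DT5. The pair cannot be told apart in this table, and both DT4 libraries lay above all 8 others. AT3G62499 was at 2.62 and 5.19 TPM at DT4 and at 0 in the other 8 libraries, and the mitochondrial ATMG01210 at 7.87 and 2.59 TPM, with 1 other library above 0 (DT2, 2.52 TPM). Among the 5 that stood lowest at DT4, AT5G48540 stood at 22.4 and 27.1 TPM in WW, 28.9 and 18.3 TPM at DT3, 1.38 and 4.06 TPM at DT4 and 21.6 and 19.1 TPM at DT5. AT3G52360 stood at 25.6 and 35.9 TPM in WW, 3.22 and 4.96 TPM at DT4 and 13.3 and 22.0 TPM at DT5. ATBFRUCT1 (AT3G13790), a cell wall invertase that splits sucrose, dipped from 6.36 and 7.21 TPM to 0.65 and 1.05 TPM and stood at 5.28 and 3.17 TPM at DT5. CYP71B22 (AT3G26200), a cytochrome P450, stood at 5.30 and 5.48 TPM, 1.24 and 1.49 TPM and 14.9 and 10.8 TPM in the same groups. AT4G36850, the last of the 5, lost its call against WW without WW library 2 (adjusted p = 0.113) or DT4 library 1 (adjusted p = 0.0734).

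**Figure D5:**
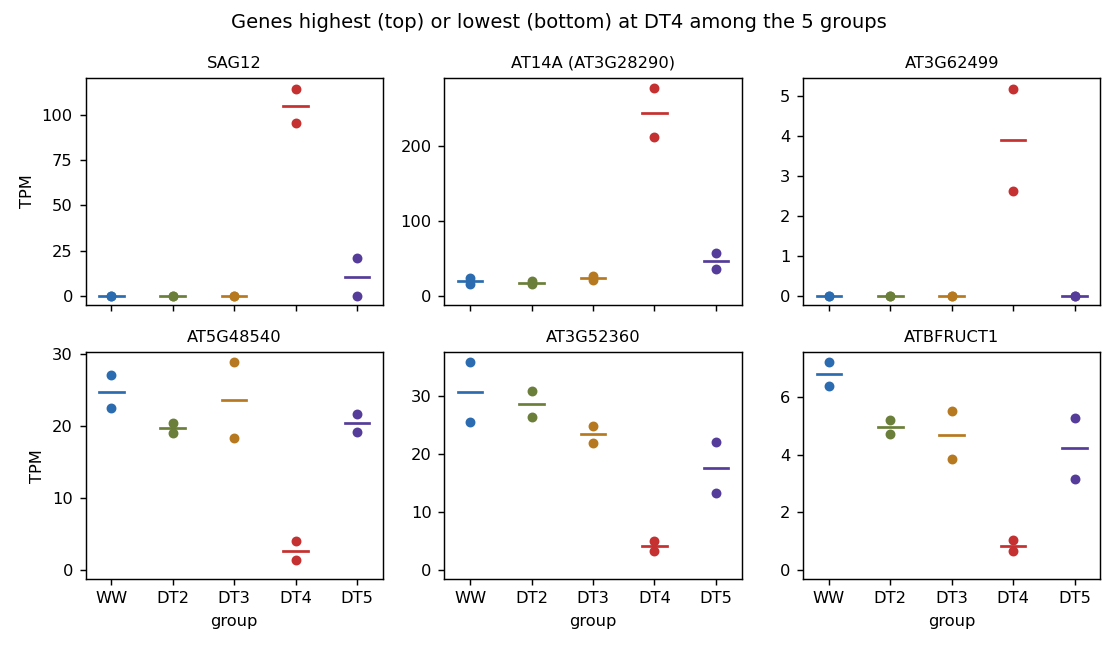
TPM of 6 genes in each library of the 5 Arabidopsis groups (2 points a group), with the mean as a line and a linear axis of its own for each gene. SAG12, AT14A and AT3G62499 are highest at DT4, and AT5G48540, AT3G52360 and ATBFRUCT1 lowest.

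The share of each transcript in its gene's TPM was compared between DT4 and WW where a gene reached 5 TPM in all 10 libraries and had at least 2 transcripts. Of 16291 transcripts 27 were called (0.166%), 14 with a higher share and 13 with a lower one. GS2 (AT5G35630), the chloroplast glutamine synthetase, passed from 1 transcript to another. AT5G35630.1.1 made up 98.8% and 98.0% of its TPM in WW and 47.9% and 59.3% at DT4, and AT5G35630.3.1 made up 1.19% and 2.05% in WW and 52.0% and 40.7% at DT4 (adjusted p = 0.0306 for each). In the sugar transporter gene TMT2 (AT4G35300) the share of AT4G35300.10.1 was 45.7% and 49.7% in WW and 4.62% and 3.57% at DT4 (adjusted p = 0.00451), while the gene went from 31.3 and 29.2 TPM to 250.1 and 191 TPM. AT1G47570.1.1 rose from 7.46% and 17.2% of its gene to 79.3% and 84.2% (adjusted p = 0.0232). In AT1G63770 the share of AT1G63770.7.1 rose from 30.7% and 30.6% to 69.6% and 65.0%, and that of AT1G63770.5.1 fell from 59.6% and 59.3% to 17.0% and 24.4%. ORP2A (AT4G22540), an oxysterol binding protein relative, had AT4G22540.1.1 at 40.3% and 33.3% in WW, and it was listed at 0 in both DT4 libraries. At DT3 the shares of these transcripts lay between those of WW and DT4. These calls depended on single libraries: without WW library 1 there were 6 higher and 10 lower, and without DT4 library 1 there were 6 higher and 7 lower. Of the 10 transcripts with the largest changes, AT4G35300.10.1 was the one that stayed under 0.05 whichever of the 4 libraries was left out (highest adjusted p = 0.0427). For the other 9 the highest adjusted p lay between 0.0865 and 0.153.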

How the data were processed

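TPM of Arabidopsis transcripts were deposited by the authors in a single linear RNA table, and per the file headers its values are TPM for 2 libraries each of WW, DT2, DT3, DT4 and DT5. BWA, RSEM, edgeR and the build TAIR10 are named, without version or role, in the submitters' processing notes. Per the labels, replicates are biological and reads were 150 bp paired-end. The header has 13 cells over 12 data fields, and the cell that names the unit was read as a caption. TPM keep no depth, so no count test or interval was possible, and single values carry the spread of 2 libraries only. No source used here states the library strand.

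TPM were summed per gene identifier (48359 transcripts, 27655 genes). Genes with 1 TPM or more in at least 2 of the 10 libraries were tested with limma 3.58.1 in R 4.3.3 on log2(TPM + 1), with a mean-dependent prior, 5 groups and Benjamini-Hochberg adjustment over all 18938 genes at 0.05. A fold on this scale understates the change of low genes. Lists and figures were made with Python 3.11.15, pandas 2.3.3, numpy 2.4.6 and matplotlib 3.10.9. Symbols came from RefSeq by locus tag (TAIR10.1, 27445 of 27655 identifiers). The fit was tried on simulated data with 200 changed genes and no shift in scale. That is far fewer changed genes than were called here, so the trial does not cover this setting. Transcript shares were tested with limma for genes at 5 TPM or more in every library.

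The comparison, its gene lists and its tests were chosen with earlier results of these data known. The genes named are the 10 largest rises and falls called under both scalings with a mean of 10 TPM or more and no overlap, the 4 called members of each list with the smallest adjusted p and up to 2 that moved against the rest, and the 5 genes that stood highest and the 5 that stood lowest at DT4. Further list members were named after their values were seen. Alternatives were a pseudocount of 0.1, no filter, a filter of 5 TPM, trimmed-mean rescaling, a fit of the compared libraries alone, the library number as a block, and each library left out in turn. One gene that the naming rule covers is not reported here.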

Additional observations from a re-analysis of the deposited data

How the results depend on the processing

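With DT4 set against WW, trimmed-mean rescaling gave 5238 genes higher and 4891 lower in place of 9146 and 3100. The other settings gave 8566 to 9054 higher and 2571 to 3179 lower. From DT4 to DT5, 3672 genes were lower when only the compared libraries were fitted, in place of 5747. Genes higher at DT4 than in WW, DT3 and DT5 numbered 357 after rescaling in place of 1046, and genes lower than in all of these 310 in place of 133. With genes at 20 TPM or more, 32 transcript shares were called higher and 33 lower in place of 14 and 13. With 1 library left out, DT4 against WW gave 7276 to 8258 genes higher and 2401 to 3181 lower, DT4 against DT3 4508 to 5781 higher and 2732 to 3782 lower, and DT5 against DT4 2244 to 2890 higher and 4375 to 5773 lower. The genes highest at DT4 then numbered 613 to 1308, those lowest 89 to 146, and the transcript shares 6 to 19 higher and 7 to 19 lower. Where this leaves a group with 1 library, that library is assumed to vary like the other groups. Library numbers were taken as a replicate block in 1 alternative: it gave 9030 higher and 3024 lower for DT4 against WW, 6261 and 3698 against DT3, 2957 and 5592 from DT4 to DT5, 989 and 129 genes highest and lowest at DT4, and 2 and 3 transcript shares. Deviations of equally numbered libraries from their group means correlated at -0.160 to 0.067, so the libraries share a number and no pairing is known. Of 253 named genes 211 kept their direction and call under every alternative listed. One called gene, AT5G60390, changed sign, to -0.041 after rescaling. The other sign changes were in genes that were not called. Rescaling gave -0.031 for HSP101, -0.38 for GOLS1, -0.11 for CP12-1, -0.057 for PORB, -0.22 for CESA1, -0.19 for CESA3, -0.16 for TCH4 and -0.29 for MYB28. With 1 library left out the range was -0.28 to 0.30 for GOLS1, -0.21 to 0.89 for PORB, -0.14 to 1.11 for CYP707A3, -0.43 to 0.88 for TCH4, -0.14 to 0.36 for MYB28 and -0.24 to 0.032 for ABA1. The cause of these differences was not tested.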

Other observations

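Genes of the organelle genomes were counted apart from the nuclear photosynthesis lists. Of 57 plastid genome genes tested, 5 were called higher at DT4 and 5 lower, and 3 and 6 after rescaling, with a list median 0.11 below the median gene. Over all genes 48.3% were called higher and 16.4% lower. Of 38 mitochondrial genome genes tested, 11 were called higher and 1 lower, and 5 and 1 after rescaling. Both shares of higher calls are under those of all genes (27.7% after rescaling). Without WW library 1 or DT4 library 1, 5 mitochondrial genes were called higher. No source used here states how the library preparation treated organelle RNA.

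Ribosomal protein genes of the nucleus were counted in 2 lists. Of 17 genes for plastid ribosomal proteins, 1 was called higher and 15 lower, and 1 and 16 after rescaling, with a list median 1.43 below the median gene. Of 47 other ribosomal protein genes, 18 were called higher and 8 lower, and 2 and 18 after rescaling, with a list median 0.26 below the median gene. Called higher were 8 of these without WW library 2 and 11 without DT4 library 2. The difference between these lists was not tested.

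The DT4 libraries differed from each other by a median of 0.195 on the log2 scale, against 0.137 for WW, 0.149 for DT3 and 0.214 for DT5. Over 3717 genes that moved on in the same direction from WW to DT4 and from DT4 to DT5, DT4 library 1 lay nearer to DT5 than library 2 in 83.8%.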
